A study of Mus musculus with 3 samples.

Results

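The genes described here are 34 that encode scaffolds and regulators of the postsynaptic density, the protein plate under excitatory synapses. They were taken by name from the deposited counts, and 34 of 34 were found among 19621 named genes. They comprise the Shank, Dlg, Dlgap and Homer scaffold families and a set of dendritic, adhesion, kinase and small GTPase regulators. Transcripts were measured by high-density spatial arrays in 3 coronal sections of main olfactory bulb of C57BL/6J mice aged 12 weeks, with no treatment or genotype contrast in the labels. The labels do not tie the sections to animals, so p-values measure only how differences between regions varied among these sections, which may be technical. The deposited annotation put spots in 9 regions. From the surface to the core these were the olfactory nerve layer (ONL), glomerular layer (GL), external plexiform layer (EPL), mitral layer (M/T), internal plexiform layer (IPL), outer granule cell layer (GCL-E, external), inner granule cell layer (GCL-I, internal), ependymal cell zone (E) and rostral migratory system (RMS). Levels are CPM, a gene's share of the counts of a region in a section on a common scale, given as mean ± SD over the 3 sections unless each section is named.

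At an excitatory synapse, DLG proteins hold glutamate receptors at the membrane, DLGAP proteins bind DLG above and SHANK below, and SHANK and HOMER join the layer to actin and to metabotropic receptors. In the olfactory bulb, mitral and tufted cells send dendrites into the glomeruli and across the EPL, where they form reciprocal synapses with the dendrites of granule cells. Most cell bodies of granule cells lie deep to the mitral layer. Some mRNAs of the postsynaptic density, such as Shank1 in hippocampal neurons, are carried into dendrites, so a transcript's layer need not be the layer of the cell body.

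The 34 genes gave 11893 counts in annotated regions, which is 0.798% of all counts there, with 26 (Homer3) to 1600 (Dlgap1) and a median of 273 a gene. Sections 1, 2 and 3 held 344260, 650393 and 505305 counts on named genes, and the sums of 27 section and region pairs ran from 1456 (RMS, section 3) to 182699 (EPL, section 2). Of the spots with a count on any of the 34 genes, 92.3% to 94.9% held a single count, so spots were not compared and each is not a cell. A filter on low counts kept 23 of the 34, and the other 11 (Shank2, Shank3, Dlgap2, Homer1, Homer3, Lrrc4, Iqsec1, Iqsec2, Cnksr2, Shisa7 and Begain) had 26 to 177 counts each and no test. Marker genes were highest where their cells are placed: sensory axon markers summed to 1618 ± 115 CPM in the ONL, mitral and tufted cell markers to 3660 ± 828 in the M/T and granule cell markers to 10366 ± 615 in GCL-I. In sums over tissue, fewer cells of a type and less RNA per cell cannot be told apart.

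The coding ends of the 4 Dlgap genes are shown because they carry the link to the SHANK layer. The proteins end in the peptide by which the family binds the PDZ domain of SHANK. The last 30 coding bases before the stop codon, 5′ to 3′, were read from GENCODE M21 transcripts (GRCm38, the build mm10), and capitals mark the last 4 codons.
Dlgap1: atctacatccccgaggcgCAGACCCGGCTC
Dlgap2: atctacatccctgaggccCAGACGCGGCTC
Dlgap3: atctacatccccgaggccCAGACCAGGCTG
Dlgap4: atttatgtccccgaggccCAGACCAGGCTC
These lie in coding exons at chr17:70818202-70818231, chr8:14846676-14846705, chr4:127236336-127236365 and chr2:156762871-156762900 in the same order, each on the plus strand. The same end was annotated in 8 of 10, 4 of 4, 3 of 3 and 6 of 7 full-length transcripts. The 4 genes shared 22 of 30 positions and 9 of the last 12 bases, and Dlgap2, Dlgap3 and Dlgap4 matched Dlgap1 at 27, 27 and 25 of the 30.

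Summed over the 34 genes, the level was higher deep to the mitral layer than superficial to it. In sections 1, 2 and 3 the sum was 8270, 10541 and 10991 CPM in GCL-I (9934 ± 1459) and 7924, 11457 and 10414 in GCL-E (9932 ± 1815). It was 6534, 8467 and 7909 CPM in the EPL (7637 ± 995), 5505, 6706 and 6701 in the GL (6304 ± 692) and 6054, 5576 and 5845 in the ONL (5825 ± 240). The IPL, GCL-E, GCL-I and E exceeded their section's mean over the other 8 regions in 3 of 3 sections, and the ONL, GL, EPL and M/T in 0 of 3. The levels in the M/T (7777 ± 991), the IPL (9137 ± 1519) and the E (9323 ± 956) lay between those of the EPL and the granule cell layers, and neighbours in this order overlapped. The order is that of plain CPM, and with TMM-scaled totals the M/T lay below the EPL. The RMS gave 6325, 9299 and 4121 CPM on 103, 48 and 6 counts and could not be placed. Section 1 was the lowest of the 3 in 7 of the 9 regions, the ONL and RMS excepted. The 11 untested genes alone summed to 966 ± 115 CPM in GCL-I, 684 ± 25.6 in the EPL and 471 ± 158 in the ONL. These sums are a description with no test, since the genes were chosen with results of these data known.

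**Figure D1:**
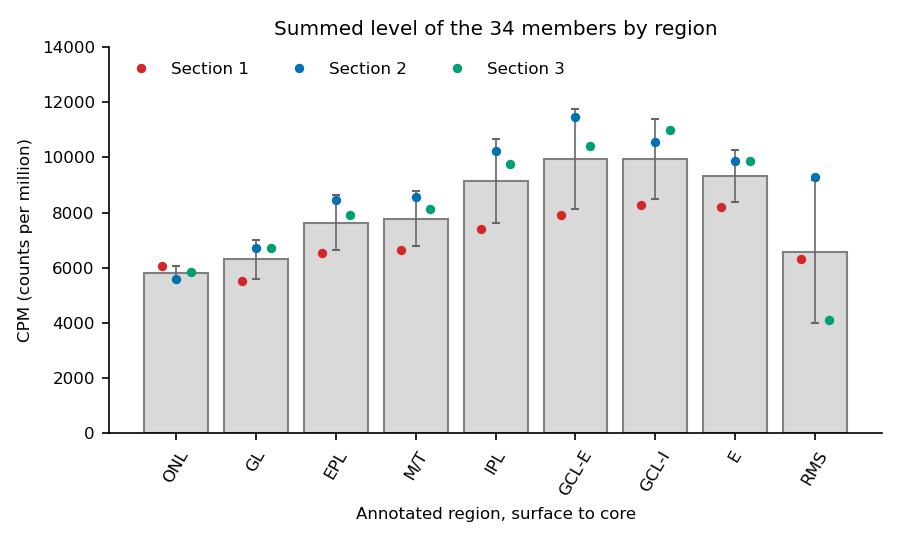
Summed level of the 34 genes (CPM) in each of the 9 regions, ordered from surface to core, with bars for the mean, whiskers for the SD and points for the 3 sections. The granule cell layers stand at 9932 and 9934 CPM on average, against 5825 in the ONL.

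Of the 23 tested genes, 12 passed an adjusted p of 0.05 in at least 1 of 13 contrasts, with 23 passes in all. A region was set against the unweighted mean of the other 8 (log scale), and 4 contrasts set regions against each other. Leaving out section 1, 2 or 3 kept 18 of 23, 5 of 20 and 5 of 20 passes, with the direction kept in each. Without the section term in the model, only Shisa9 in the GL still passed.

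Among the Shank scaffolds, Shank1 was higher in the EPL, where mitral, tufted and granule cell dendrites meet. Its EPL level was 413, 870 and 846 CPM in sections 1, 2 and 3, on 30, 159 and 106 counts, and the mean of its other regions was 307, 512 and 620 CPM. The EPL was above the other regions in 3 of 3 sections, although its value in section 1 was below the other sections' means elsewhere. The log2 fold change was 0.97 ± 0.16 (SE; edgeR, adjusted p = 1.42e-07), and it stayed past the threshold without each section in turn (adjusted p 1.5e-07 to 0.00612). The RMS, a region of few counts, is part of the mean set against the EPL, and Shank1 was at -1.31 ± 0.60 there (edgeR, adjusted p = 0.281). Over 11 refits its EPL value ran from 0.76 to 1.43 and passed in 10. Against the EPL directly, the granule cell layers were lower by a log2 fold change of -0.997 ± 0.22 (adjusted p = 1.32e-04), with 330, 458 and 506 CPM there. This contrast did not pass without section 2 (adjusted p = 0.0887). In the M/T, Shank1 stood at 254, 538 and 562 CPM (451 ± 172) and in the GL at 306, 636 and 560 (500 ± 173). Both were below the EPL of the same section each time, although the ranges over sections overlapped. Against the EPL directly, the log2 fold change was -0.83 ± 0.27 for the M/T (edgeR, adjusted p = 0.0635). For the GL it was -0.53 ± 0.19 (adjusted p = 0.176), so neither passed. Shank2, with 136 counts, and Shank3, with 65, are the family's other scaffolds and stood at 88.7 ± 16.8 and 42.6 ± 5.20 CPM over whole sections.

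Of the Homer proteins, which link metabotropic glutamate receptors to the Shank layer, only Homer2 had enough counts to test. It stood at 96.3, 323 and 287 CPM in the EPL, on 7, 59 and 36 counts, and its other regions averaged 93.8, 176 and 166 CPM. In section 1 the EPL was level with the rest, and in sections 2 and 3 it was higher. The log2 fold change was 1.48 ± 0.35 (adjusted p = 4.07e-04). Homer2 had 0 counts in the RMS in 3 of 3 sections, so this fitted value depends on the prior count, and without the RMS it was 0.73 (adjusted p = 0.0153). Without section 2 it did not pass (adjusted p = 0.107). Its IPL level of 236 ± 37.2 CPM equalled that of the EPL (236 ± 122). Homer1 (144 counts) and Homer3 (26 counts) were not tested.

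In the EPL, 3 of the 23 tested genes were higher and 1 was lower, against 10.8% and 1.35% of the 1996 genes tested (12.1% in either direction). The third higher gene was Shisa9, described below with the glomerular layer. The median log2 fold change of the 23 was 0.04, against 0.11 over all genes, and under RLE scaling it was -0.03 (0.05 for all genes). Astrocyte and mitral and tufted cell markers moved with the 3 higher genes: 9 of 10 astrocyte markers and 5 of 5 tested mitral and tufted markers of 8 were higher in the EPL. Of 10 granule cell markers 2 were lower (Gad1 and Pcp4) and 1 higher (Camk2a), and of 4 oligodendrocyte markers tested 2 were lower (Mbp and Mobp). The astrocyte markers summed to 8130, 16541 and 16129 CPM there and to 5252 to 7591 in GCL-E, with none at 0. The mitral and tufted markers summed to 5104, 2118 and 2235 CPM in the EPL and to 458 to 849 in GCL-E, where 3 of the 8 were at 0. The part of these cell types in the values of the 4 genes was not tested.

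Dlgap4, of the family that joins DLG to SHANK, had the reverse order to Shank1. Its EPL level was 275, 186 and 104 CPM on 20, 34 and 13 counts, and the mean of its other regions was 380, 381 and 226 CPM. The EPL was lower in 3 of 3 sections, with a log2 fold change of -0.67 ± 0.22 (adjusted p = 0.0216). The granule cell layers held 386, 515 and 337 CPM, above the EPL of the same section each time, with a log2 fold change of 0.997 ± 0.28 (adjusted p = 0.00417). Neither contrast passed without section 2 (adjusted p 0.307 and 0.239) or without section 3 (0.319 and 0.110). When spots within 5 array positions of another region were left out, the values turned to 0.23 and -0.11, with 0.654% to 10.8% of the GCL-E counts kept. The median of all genes moved as well, from 0.11 to 0.70 and from -0.07 to -1.04. Dlgap4 thus stayed below that median in the EPL and above it in the granule cell layers against the EPL. Exons of Dlgap4 overlap 4930405A21Rik on the other strand, and no source used here says whether the counting used strand.

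Dlgap1, the most counted of the 34, passed in none of the contrasts. It stood at 660, 1221 and 1277 CPM in the EPL and at 506, 1270 and 1427 in GCL-I, and the ranges overlapped. Its granule to EPL log2 fold change was -0.06 ± 0.17 (adjusted p = 0.861). In section 1 it was at 552 CPM over the section, below 1236 and 1221 in sections 2 and 3. Dlgap3 (152 CPM on average over sections) did not pass in any contrast either, and Dlgap2 had 49 counts. Of the DLG scaffolds, which include PSD-95 (Dlg4), PSD-93 (Dlg2), SAP97 (Dlg1) and SAP102 (Dlg3), 4 of 4 were tested and 0 passed in any of the 13 contrasts. Dlg2 was at 179, 558 and 375 CPM in the EPL and 97.3, 594 and 405 in GCL-I, and its EPL value against the other regions was 0.49 ± 0.19 (adjusted p = 0.0821). Dlg4 stood at 199 ± 18.6 CPM in the EPL and 263 ± 15.2 in GCL-I, with a granule to EPL log2 fold change of 0.11 ± 0.31 (adjusted p = 0.865). Dlg1 and Dlg3 averaged 162 and 186 CPM over sections. A value that missed the threshold does not show equal levels.

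**Figure D2:**
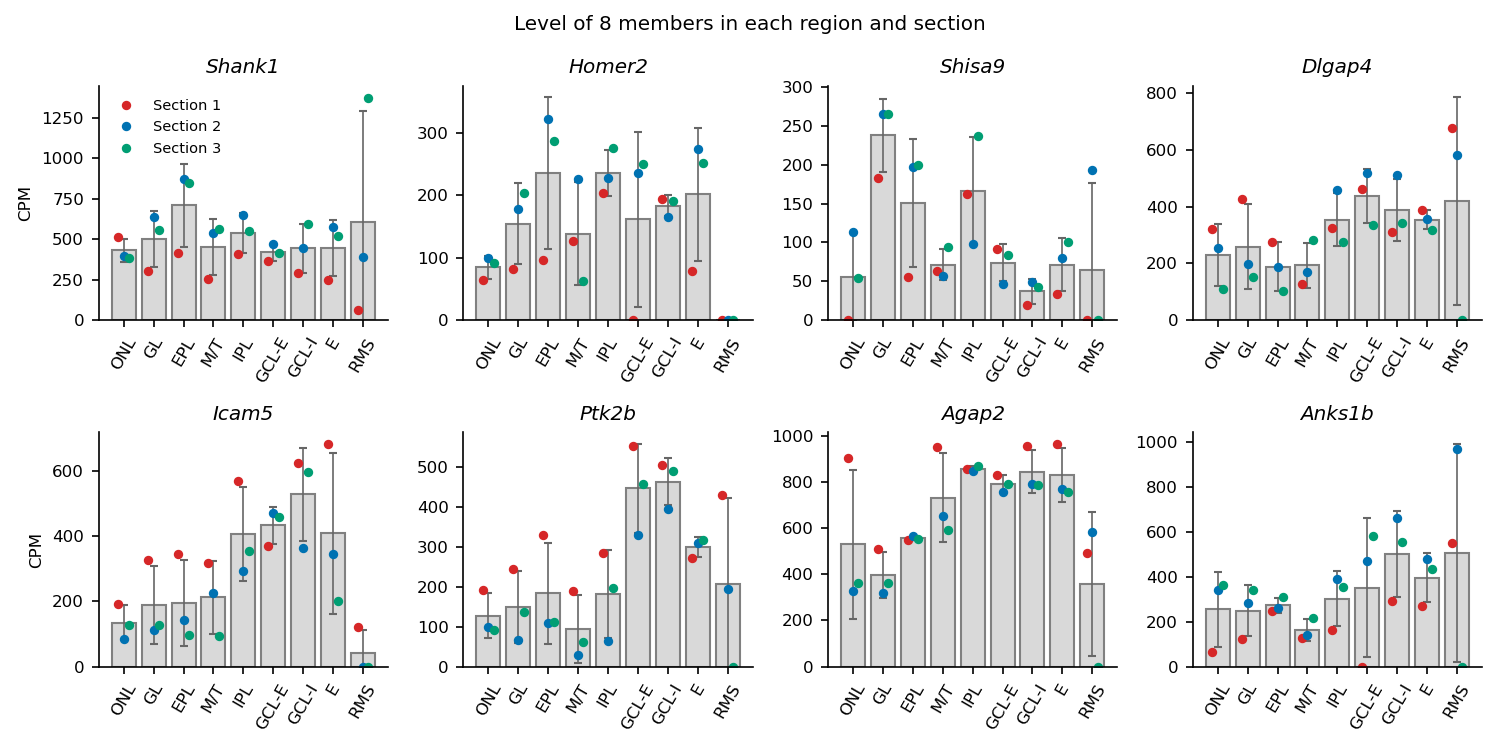
Level (CPM) of 8 of the genes in each region, with bars for the mean, whiskers for the SD and points for sections 1 to 3, each panel on its own axis. Shank1 has its highest well-counted level in the EPL and Shisa9 in the GL, while Icam5 and Ptk2b stand highest in GCL-E and GCL-I. RMS points rest on 0 to 11 counts a gene.

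In the glomerular layer, where sensory axons meet mitral and tufted dendrites, 4 regulators were lower and 1 receptor auxiliary protein was higher. These were 4 of the 23 tested genes lower and 1 higher, against 2.15% and 8.77% of all 1996 genes (10.9% in either direction). The median log2 fold change of the 23 was -0.33, against 0.13 over all genes. Scaled by library sizes alone, the same medians were -0.47 and -0.03, 8 of the 23 passed, and the split of all genes moved from 175 higher and 43 lower to 97 and 86.

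The lower genes were Ddn, Psd, Agap2 and Baiap2. Ddn encodes dendrin, a protein of dendrites. It stood at 81.6, 86.1 and 98.3 CPM in the GL on 4, 13 and 13 counts, and its other regions averaged 243, 209 and 187 CPM. The GL was lower in 3 of 3 sections and the groups did not overlap, with a log2 fold change of -0.98 ± 0.32 (adjusted p = 0.0272). Against the EPL alone, at 193, 252 and 176 CPM, it was -1.24 ± 0.34 (adjusted p = 0.0264), where 1 of the 23 was lower and 0 higher, against 0.752% and 0.852% of all genes. Psd, an exchange factor for the small GTPase ARF6, stood at 326, 99.3 and 106 CPM in the GL and at 470, 219 and 260 CPM on average elsewhere. The GL was lower within each section, although section 1 was high in both, and the log2 fold change was -0.82 ± 0.25 (adjusted p = 0.0148). Agap2, a GTPase-activating protein also known as PIKE, was at 510, 318 and 363 CPM on 25, 48 and 48 counts, against 812, 660 and 589 elsewhere. The groups did not overlap, and the log2 fold change was -0.64 ± 0.19 (adjusted p = 0.00909). Baiap2, or IRSp53, couples Rac to actin in spines, and stood at 184, 172 and 75.6 CPM against 406, 266 and 230 elsewhere. Its log2 fold change was -0.75 ± 0.26 (adjusted p = 0.0345).

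These 4 rested on few counts and on the number of sections. Without section 2 the adjusted p for Ddn, Psd and Agap2 was 0.269, 0.171 and 0.322, without section 3 it was 0.119, 0.390 and 0.0658, and for Baiap2 it was 0.621 without section 3 and 0.124 without section 1. Ddn also missed without section 1 (adjusted p = 0.178), and against the EPL without section 2 (0.879) or 3 (0.147). Exons of Ddn overlap B130046B21Rik and exons of Psd overlap Nfkb2, each on the other strand. Markers of several cell types moved in the GL as well. Of 10 granule cell markers 4 were lower (Camk2a, Gpsm1, Pcp4 and Tshz1) and 1 higher (Gad2), and they summed to 4507 to 5749 CPM, against 9692 to 10897 in GCL-I. Of 5 sensory axon markers 3 were tested and 3 were higher, with a sum of 571 to 945 CPM, against 128 to 181 in GCL-I. Of 6 ensheathing glia markers 4 were tested and 3 were higher, with 2120 to 3517 CPM against 1193 to 1584. Mitral and tufted cell markers were higher for 4 of 5 tested and astrocyte markers for 7 of 10, while oligodendrocyte markers were lower for 2 of 4. None of the markers in these lists was at 0 in the GL, and their part in the values of the 5 genes was not tested.

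Shisa9, also called CKAMP44, is an auxiliary subunit of AMPA receptors. It was at 183, 265 and 265 CPM in the GL on 9, 40 and 35 counts, and its other regions averaged 53.4, 104 and 101 CPM. The GL was higher in 3 of 3 sections with no overlap, and the log2 fold change was 1.74 ± 0.31 (adjusted p = 9.66e-07). It was also higher in the EPL (55.0, 197 and 200 CPM; log2 fold change 1.15 ± 0.33, adjusted p = 0.00634), though not in section 1, where the other regions averaged 69.4 CPM. The granule cell layers held 55.8, 48.3 and 63.0 CPM, with a log2 fold change of -1.83 ± 0.48 against the EPL (adjusted p = 0.00200). The 3 values passed without section 1, and without section 2 or 3 the gene fell below the filter. Mitral and tufted markers (4 of 5 tested higher, 1838 to 3466 CPM summed in the GL) and astrocyte markers (7 of 10 higher, 8237 to 12346 CPM) moved with the GL, with none at 0, and their part in this result was not tested.

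In the ONL, which holds sensory axons and glia and few dendrites, 0 of the 23 tested genes were higher and 1 was lower, against 5.96% and 0.701% of all genes. That gene was Psd3, an ARF6 exchange factor related to Psd, at 386, 368 and 310 CPM in the ONL. Its other regions averaged 327, 830 and 798 CPM, so the ONL was lower in sections 2 and 3 and not in section 1, where it had 6 counts. The log2 fold change was -0.79 ± 0.25 (adjusted p = 0.0263), and it missed without section 2 (0.512) or 3 (0.412). The median of the 23 was -0.35, against 0.08 over all genes, and 3 of 23 values lay above 0. Under library sizes alone the medians were -0.57 and -0.13, 3 of the 23 passed, and all genes split into 83 higher and 61 lower in place of 119 and 14. Of the ensheathing glia markers 4 of 4 tested were higher in the ONL, with a sum of 4766 to 7345 CPM, of the sensory axon markers 3 of 3 tested, with 1486 to 1694, and of the astrocyte markers 5 of 10, with 7343 to 11477. Of 10 granule cell markers 1 was lower (Penk, log2 fold change -1.18), with a sum of 4352 to 6827 CPM. None of these markers was at 0 there, and their part in the Psd3 value was not tested.

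In the granule cell layers the adhesion protein Icam5 and the tyrosine kinase Ptk2b were higher. Icam5, or telencephalin, is a dendritic adhesion molecule of forebrain neurons. It stood at 623, 363 and 596 CPM in GCL-I on 32, 22 and 28 counts, and its other regions averaged 365, 209 and 183 CPM. GCL-I was higher in 3 of 3 sections, with a log2 fold change of 1.21 ± 0.24 (adjusted p = 2.09e-04). Against the EPL (344, 142 and 95.8 CPM), the granule cell layers (496, 417 and 527 CPM) did not overlap, with a log2 fold change of 1.25 ± 0.28 (adjusted p = 1.36e-04). Ptk2b, or PYK2, is a calcium-activated kinase that acts on NMDA receptors. It was at 506, 396 and 490 CPM in GCL-I on 26, 24 and 23 counts, against 312, 150 and 172 CPM elsewhere. The groups did not overlap, and the log2 fold change was 1.27 ± 0.25 (adjusted p = 1.80e-04). Its granule to EPL value was 1.24 ± 0.29 (adjusted p = 3.53e-04), with 529, 363 and 474 CPM against 330, 109 and 112.

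These were 2 of 23 higher and 0 lower in GCL-I, against 2.40% and 0.902% of all genes. Without section 3 Icam5 missed the threshold in GCL-I (adjusted p = 0.0761) and against the EPL (0.114), and Ptk2b did so against the EPL (0.0888), while Ptk2b in GCL-I missed without section 2 (0.0608). Granule cell markers moved with both genes: 4 of 10 were higher in GCL-I and 7 of 10 in the granule cell layers against the EPL. They summed to 9692 to 10897 CPM in GCL-I and 4246 to 6149 in the EPL, with none at 0, and their part was not tested. Exons of Icam5 overlap Gm26592 and Gm47079 on the other strand.

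The mitral layer was lower than the granule cell layers for Ptk2b and Anks1b. Ptk2b stood at 190, 28.3 and 62.5 CPM there, on 3, 1 and 2 counts, with a log2 fold change of -2.50 ± 0.52 against the granule cell layers (adjusted p = 2.58e-04). Anks1b, or AIDA-1, binds DLG4 and moves between synapse and nucleus, and stood at 127, 142 and 219 CPM in the M/T on 2, 5 and 7 counts. Its other regions averaged 214, 482 and 368 CPM, so the M/T was lower in 3 of 3 sections, with a log2 fold change of -1.23 ± 0.38 (adjusted p = 0.0492). Against the granule cell layers (146, 566 and 568 CPM) it was -1.46 ± 0.41 (adjusted p = 0.0266), and section 1 hardly differed. For the M/T against the others 1 of 23 was lower and 0 higher, against 0.301% and 1.9% of all genes. Against the granule cell layers 2 of 23 were lower and 0 higher, against 0.351% and 1.7%. The Anks1b value in the M/T missed without any of the sections (adjusted p 0.0974, 0.609 and 0.240) and under RLE scaling (0.0520). It passed in only 1 of 11 refits. The direct contrasts missed without section 2 or 3, at 0.527 and 0.297 for Anks1b and 0.0669 and 0.0540 for Ptk2b. Against the granule cell layers, mitral and tufted cell markers were higher in the M/T for 5 of 5 tested of 8. They summed to 2945 to 4567 CPM in the M/T, 643 to 992 in GCL-I and 458 to 849 in GCL-E, where 3 of the 8 were at 0. Of 10 granule cell markers 1 was lower (Penk, log2 fold change -1.50), with a sum of 6497 to 7022 CPM in the M/T. Of 4 oligodendrocyte markers tested 1 was lower (Mobp, -1.44). The part of these cell types in the values of Ptk2b and Anks1b was not tested.

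In the ependymal cell zone, 2 of the 23 were higher and 0 lower, against 2.15% and 0.451% of all genes. Icam5 was at 681, 344 and 201 CPM there on 60, 30 and 12 counts, and its other regions averaged 358, 212 and 232 CPM. The zone was higher in sections 1 and 2 and lower in section 3, with a log2 fold change of 0.86 ± 0.23 (adjusted p = 0.0138). Baiap2 was at 590, 286 and 352 CPM on 52, 25 and 21 counts, against 355, 251 and 195 elsewhere, higher in 3 of 3 sections (log2 fold change 0.69 ± 0.21, adjusted p = 0.0474). Without section 1 the adjusted p was 0.211 for Icam5 and 0.313 for Baiap2, and without section 2 it was 0.223 and 0.169. Baiap2 also missed without section 3 (0.197) and under RLE scaling (0.119), where all genes split into 22 higher and 23 lower in place of 43 and 9. Granule cell markers (5 of 10 higher, 7873 to 8992 CPM) and oligodendrocyte markers (2 of 4 tested of 6 higher, 3413 to 5268 CPM) moved with the zone, with none at 0, and their part was not tested.

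Among the remaining contrasts edgeR called 0 of the 23 in the IPL, GCL-E and RMS and between the M/T and the EPL, against 0%, 0.401%, 0.902% and 3.21% of all genes. At an unadjusted p under 0.05 the 23 gave 4, 4, 6 and 6, against 140, 199, 289 and 257 of all 1996 genes. DESeq2 called 0, 1, 0 and 0 of the 23. Sipa1l1, a RapGAP of spines also called SPAR, was the second most counted gene without a pass. It stood at 369, 1132 and 667 CPM in GCL-E, at 366, 848 and 869 in the IPL and at 64.4, 297 and 255 in the ONL. The ONL was lower than the other regions in 3 of 3 sections (log2 fold change -0.81 ± 0.29, adjusted p = 0.0667). Kalrn, a guanine nucleotide exchange factor of spines, stood at 339 ± 184 CPM in the M/T and 146 ± 50.4 in the EPL (log2 fold change 1.06 ± 0.37, adjusted p = 0.102). Lrrc7 (densin-180), Nsmf (Jacob) and the kinase Tnik averaged 106, 199 and 302 CPM over sections and passed in none of the contrasts.

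Set directly against each other, the granule cell layers and the EPL separated 5 of the 23. Icam5, Ptk2b and Dlgap4 were higher and Shank1 and Shisa9 lower, against 4.41% and 10.3% of all genes, and 21.7% of the 23 passed in either direction against 14.7% of all. The median log2 fold change of the 23 was 0.24 with 18 of 23 values above 0, and the median of all genes was -0.07. Scaled by library sizes alone the medians were 0.46 and 0.16, and 8 of the 23 were higher and 2 lower. All genes then split into 204 higher and 149 lower in place of 88 and 205. Across the 23, which are not independent replicates, this fold change had a Spearman correlation of 0.24 with the G+C content of the longest transcript and 0 with the gene's span.

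**Figure D3:**
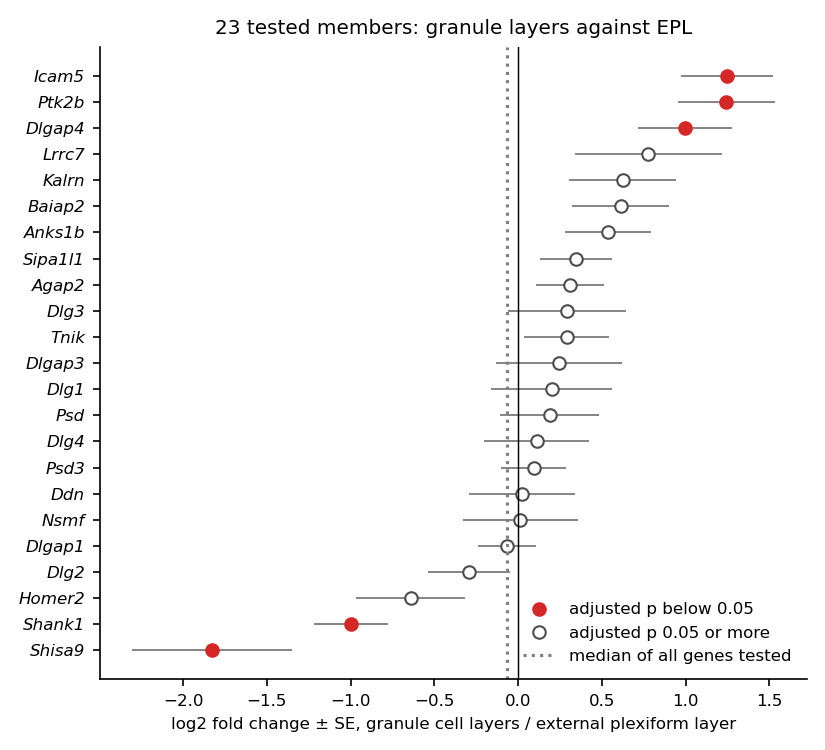
Log2 fold change ± SE of each of the 23 tested genes, mean of GCL-E and GCL-I against the EPL, with filled points for an adjusted p below 0.05 and a dotted line at the median of all genes tested. Values run from -1.83 (Shisa9) to 1.25 (Icam5).

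Along the axis through the layers, the sum of the 34 genes fell at the mitral layer. At 20 to 60 spot steps deep to it the sum was 8095, 10121 and 10147 CPM in sections 1, 2 and 3, and in the layer itself 6660, 8551 and 8121. On the superficial side it was 8042 ± 1167 CPM within 20 steps and 6272 ± 791 at 60 to 100 steps. Shank1 took another course: it was at 475 ± 59.8 CPM within 20 steps on the deep side, 451 ± 172 in the layer and 782 ± 255 within 20 steps on the superficial side. In each section its level just outside the mitral layer (502, 1001 and 843 CPM) was above the level just inside (417, 537 and 472). It then came down to 460 ± 133 at 60 to 100 steps. Icam5 went from 442 ± 69.6 CPM within 20 deep steps to 200 ± 200 within 20 superficial steps, the latter at 430, 98.4 and 70.3 in the 3 sections. Ptk2b was at 420 ± 38.8 CPM at 20 to 60 deep steps and 181 ± 189 at 20 to 60 superficial steps, where section 1 (400 CPM) stood apart from sections 2 and 3 (70.9 and 73.6). Shisa9 was at 16.3 ± 15.9 CPM at 60 to 100 deep steps, on 2 counts, and 194 ± 16.4 at 60 to 100 superficial steps.

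**Figure D4:**
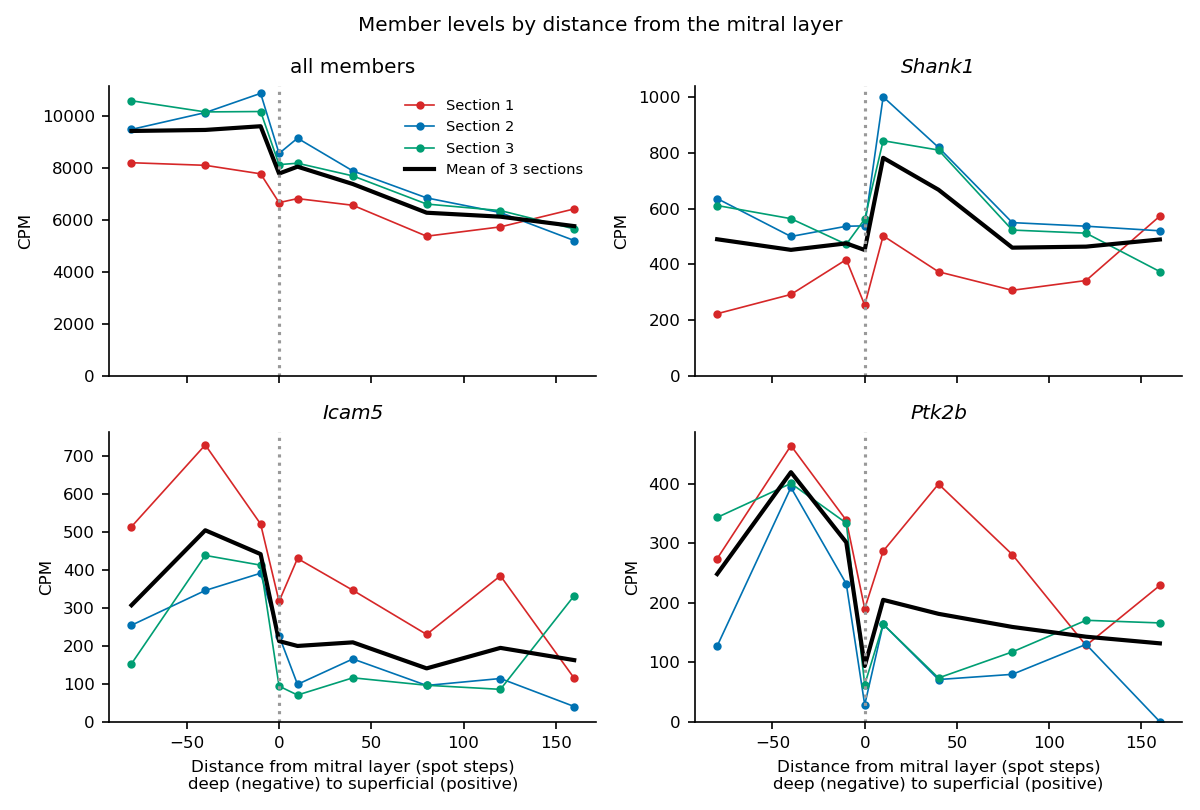
Level (CPM) against distance from the mitral layer in spot steps, deep to the left and superficial to the right, for the sum of the 34 genes and for Shank1, Icam5 and Ptk2b, with thin lines for sections and a thick line for their mean. The mean of Shank1 is 782 CPM within 20 superficial steps and 475 within 20 deep steps.

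Promoter sequence is shown for 3 genes with a pass in the granule cell, mitral or glomerular contrasts whose window held no annotated exon. RefSeq promoter entries (GRCm38.p6) existed for 25 of the 34 genes, and the 250 bases before the start are given 5′ to 3′ on the gene's strand, with capitals for a match to a searched motif.
Icam5: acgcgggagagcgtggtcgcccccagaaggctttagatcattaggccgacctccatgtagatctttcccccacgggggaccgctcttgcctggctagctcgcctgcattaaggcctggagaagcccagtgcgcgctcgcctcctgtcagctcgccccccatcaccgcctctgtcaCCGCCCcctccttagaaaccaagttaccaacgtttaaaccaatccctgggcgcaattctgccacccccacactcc
Anks1b: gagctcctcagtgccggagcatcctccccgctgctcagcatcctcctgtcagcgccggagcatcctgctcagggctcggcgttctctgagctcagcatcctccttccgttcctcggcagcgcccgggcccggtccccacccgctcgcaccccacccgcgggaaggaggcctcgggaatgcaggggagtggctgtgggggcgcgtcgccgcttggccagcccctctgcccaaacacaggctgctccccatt
Psd: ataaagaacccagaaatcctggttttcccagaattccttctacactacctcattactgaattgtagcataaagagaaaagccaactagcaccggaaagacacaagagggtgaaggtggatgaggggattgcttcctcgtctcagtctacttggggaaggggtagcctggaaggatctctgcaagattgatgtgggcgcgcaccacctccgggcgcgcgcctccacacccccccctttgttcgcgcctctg
They lie at chr9:21031788-21032037 (plus strand), chr10:89873259-89873508 (plus) and chr19:46327157-46327406 (minus). Both strands were searched for the letters TGACG (a half-site of the cAMP response element), GGGCGG (a GC box), CANNTG (an E-box) and GCGNGGGCG (an EGR site), and overlap between motifs was allowed. The capitals in Icam5 are a GC box on the other strand, and Anks1b and Psd held none of the 4. Of 32851 mouse promoter windows of this length, 17.8%, 32.7%, 66.2% and 4.70% held each motif in the same order. G+C was 61.6%, 70.4% and 53.2%, against a median of 52.4%.

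Genes of neighbouring pathways, from lists chosen with earlier results of these data known, gave a comparison for these layers. Of 14 glutamate receptor genes 9 were tested. In GCL-I, 2 were higher, against 2.4% of all genes. These were the AMPA receptor subunit Gria3 (log2 fold change 0.86 ± 0.23, adjusted p = 0.0154) and the obligatory NMDA receptor subunit Grin1 (0.77 ± 0.21, 0.0167). In the E, 2 were higher as well, against 2.15% of all genes: Gria3 (0.69 ± 0.21) and Grm5 (1.46 ± 0.43). In the GL, Gria1 was higher (0.85 ± 0.18) and Gria3 lower (-0.92 ± 0.26), and in the ONL Grin2b was lower (-0.87 ± 0.28). Of all genes, 8.77% were higher and 2.15% lower in the GL, and 0.701% were lower in the ONL. Grin1 was the only 1 to pass in the granule cell layers against the EPL (0.74 ± 0.24), where 4.41% of all genes were higher. The median over the 9 in that contrast was 0.32, against -0.07 over all genes.

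Of 16 kinases, GTPase regulators and plasticity proteins 11 were tested. In the GL 0 were higher and 3 lower, against 2.15% of all genes lower: the kinase subunits Camk2a (-1.20 ± 0.22) and Camk2b (-0.80 ± 0.20) and the calmodulin-binding Nrgn (-0.79 ± 0.24). In the E 5 were higher, against 2.15% of all genes, led by Nrgn (1.54 ± 0.17, adjusted p = 5.19e-16). In the EPL 2 were higher, against 10.8%: Camk2a (0.58 ± 0.17) and the spine protein spinophilin, Ppp1r9b (1.36 ± 0.30). Ppp1r9b was far lower in the RMS (-7.15 ± 1.73), a region of few counts that is part of the mean set against the EPL. Its EPL value may therefore be too high, as for Homer2, and no value without the RMS is given here. The granule cell layers were above the EPL for Camk2b (0.94 ± 0.21) and the calcineurin subunit Ppp3ca (0.56 ± 0.19).

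Of 10 mRNAs known in dendrites of other neurons, 5 of which are among the 34, 8 were tested. In the EPL 3 were higher, against 10.8% of all genes, and 0 lower: Camk2a, the microtubule protein gene Map2 (0.53 ± 0.13) and Shank1. In the GL 0 were higher and 4 lower, Camk2a, Nrgn, Ddn and Psd, against 2.15% of all genes lower there. Shank1, Ddn and Psd are among the 34, and Camk2a and Nrgn were counted in the list of kinases and plasticity proteins. Of the genes named here only Map2 was not reported above, so this list is not a separate comparison. The median over the 8 was 0.30 in the EPL and -0.61 in the GL, against 0.11 and 0.13 over all genes.

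Of 14 genes of the inhibitory postsynapse 7 were tested. Among those that passed, the GABA-A receptor subunit Gabrb1 was lower in the granule cell layers than in the EPL (-1.45 ± 0.48, adjusted p = 0.0207) and the subunit Gabra5 was higher (1.60 ± 0.39, adjusted p = 5.93e-04). Of 15 genes of the presynaptic active zone 7 were tested and 1 passed in any contrast. That was Pclo, which encodes piccolo and was higher in the M/T (1.40 ± 0.27) and the EPL (0.93 ± 0.19) and lower in the granule cell layers against the EPL (-1.33 ± 0.27).

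Section 1 stood apart from sections 2 and 3 in the make-up of the 34 genes. With 1 CPM added, the log2 ratio of section 1 to the mean of the other 2 was above 0 for 14 genes and below 0 for 20, with a median of -0.33, against 0.02 over 3583 genes with at least 100 counts. It ran from -2.12 for Lrrc7 and -2.09 for Cnksr2 to 1.85 for Begain. Icam5 was at 468 CPM over section 1 and 199 and 197 over sections 2 and 3, and Psd at 450, 178 and 229. Dlg2 was at 139 CPM in section 1 and 456 and 365 in the others, and its gene spans 1973 kb, the longest of the 34. Across the 34 genes, which share these libraries, the ratio had a Spearman correlation of 0.69 with transcript G+C content and -0.69 with gene span, and across the 3583 genes 0.54 and -0.50. Section 1 also had the fewest counts, and the part of depth in this was not tested. The model's section term takes out such a shift where it is the same in every region.

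**Figure D5:**
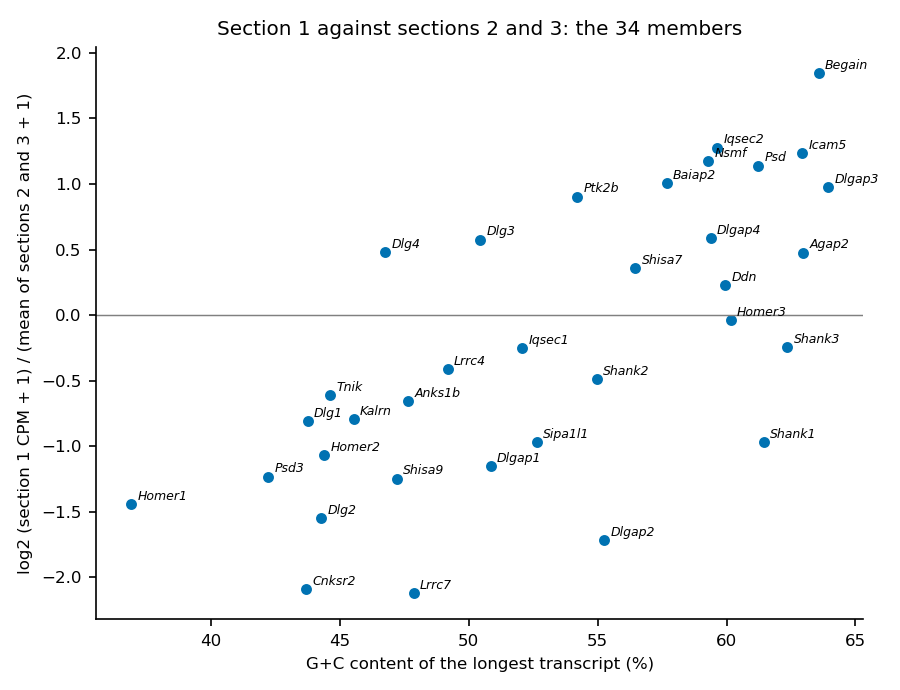
Log2 ratio of section 1 to the mean of sections 2 and 3 (CPM, 1 added) against the G+C content of the longest annotated transcript (%), with a point for each of the 34 genes. Begain lies highest at 1.85 and Lrrc7 lowest at -2.12.

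The 34 genes lie on 17 chromosomes, with spans from 5.71 kb (Ddn) to 1973 kb (Dlg2) in GENCODE M21. Of these, 13 share exonic bases with another annotated gene, 1 on the same strand (Dlg2) and 12 on the other strand, among them Shank1 (with 1700008O03Rik), Homer2 (Gm44570), Psd3 (Gm15991) and Dlgap1 (AC079441.1). Counts of such genes are uncertain where reads fell in the shared bases. Shank1 lies at chr7:44310253-44360572, Homer2 at chr7:81600481-81707527, Shisa9 at chr16:11984113-12270902, Icam5 at chr9:21032073-21039036, Ptk2b at chr14:66153257-66281052 and Dlgap4 at chr2:156613705-156764363.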

How the data were processed

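Each of 3 sections of mouse main olfactory bulb was a sample and a replicate. The authors deposited raw counts per spot and gene and a table of region names per spot. Per the submitters' processing notes, mm10 was the build. Whether counts are unique molecules, the aligner, annotation, strand use and how regions were drawn are not given in the sources used here. Pixel positions linked 100% of count entries to a line of the region table. Counts without a gene name (0.0325%, 0.0764% and 0.0801%) and spots of no region stayed out of tests, and 0 columns of sample values were left unused.

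Counts were summed into 27 section and region sums and fitted with edgeR 4.0.16 (quasi-likelihood, R 4.3.3) with region and section terms, TMM scaling and filterByExpr (minimum count 10), which left 1996 genes. P-values were adjusted by Benjamini-Hochberg over these in each of 13 contrasts, at a threshold of 0.05. The TMM factor of the RMS sum of section 3 was 3.39, on 1456 counts. Sums from a section come from the same tissue and array, hence the section term. Deviations of log levels from the region mean had a mean correlation of 0.400 for sums of the same section (108 pairs, lowest 0.0364) and -0.176 for sums of different sections (216 pairs). Each region mean was taken over the same sections, so a region's deviations cancel across them. The negative value between sections therefore follows from the positive value within sections and is no separate evidence for the section term. The steps were tested on simulated data.

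The 34 genes, the lists and the tests were chosen with earlier results of these data known. Full values were given for genes past the threshold in any contrast and for the 3 with the most counts that were not, and every other tested gene was named. Listed genes past the threshold were named, at most 4 a list, led by those with the most counts, though not every gene so chosen is reported here. Gene locations came from GENCODE M21, which held 99.8% of the 19621 symbols. Alternatives were RLE scaling, library sizes alone, no filter, no section term, each section left out, DESeq2 1.42.0, no RMS, boundary spots left out and a join by spot name. For the summed level they were TMM-scaled totals and leaving out Dlgap1. The counts per sum limit the precision.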

Additional observations from a re-analysis of the deposited data

Results flagged for a closer look

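A few spots under tissue were assigned to no region and entered no comparison. In section 2 they held 5699 counts, 50 of them on the 34 genes, or 8773 CPM. In section 3 they held 3435 counts, 26 of them on the 34 genes, or 7569 CPM. In section 1 such spots held 42 counts and 0 on the 34 genes. These are signals in data that the comparisons left out.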

How the results depend on the processing

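The 23 passes of single genes kept their direction in 236 of 238 refits and their side of the threshold in 142, and 94 were weaker. The 2 reversals were Dlgap4 with boundary spots left out, at 0.23 in the EPL and -0.11 for granule cell layers against the EPL. The medians of all genes were then 0.70 and -1.04, so the change of sign came with a shift of all genes. Library sizes alone kept 23 of 23 passes, RLE scaling and a fit without the RMS 21 each, DESeq2 14, no filter 11 and no replicate block 1. The pass kept without the block was Shisa9 in the GL, and the pairing of sums within a section comes from its shared tissue. With boundary spots left out, 6 of 17 passes that could be refitted were kept. Library sizes alone moved the median log2 fold change of all genes from -0.44 to -0.04 in the RMS, from 0.08 to -0.13 in the ONL and from -0.07 to 0.16 for granule v EPL. Depth limits the M/T, IPL, GCL-E and RMS. The cause of the changes below was not tested. Below, counts are given only where they were more than 1.5 times above or below the value first reported, a region stands for that region against the others, and v sets a region against another. With RLE scaling, the number of genes called was 15 in GCL-E, 8 in RMS, and of the 34 genes 0 in M/T, 1 in E, 2 for GL v EPL. With library sizes alone, the number of genes called was 22 in GCL-E, 10 in RMS, and of the 34 genes 3 in ONL, 8 in GL, 10 for granule v EPL, 1 for M/T v EPL. With no filter on low counts, the number of genes called was 212 in ONL, 647 in GL, 839 in EPL, 26 in M/T, 36 in GCL-I, 145 in E, 44 in RMS, 12 for GL v EPL, 18 for M/T v granule, and of the 34 genes 0 in ONL, 3 in GL, 0 in M/T, 4 in E, 1 in RMS, 2 for granule v EPL, 1 for M/T v EPL, 0 for GL v EPL, 1 for M/T v granule. With no replicate block, the number of genes called was 29 in ONL, 13 in GL, 4 in EPL, 2 in M/T, 0 in GCL-E, 0 in GCL-I, 2 in E, 1 in RMS, 10 for granule v EPL, 0 for M/T v EPL, 0 for GL v EPL, 7 for M/T v granule, and of the 34 genes 0 in ONL, 1 in GL, 0 in EPL, 0 in M/T, 0 in GCL-I, 0 in E, 0 for granule v EPL, 0 for GL v EPL, 0 for M/T v granule. With DESeq2, the number of genes called was 124 in GL, 133 in EPL, 19 in GCL-E, 19 in E, 10 for GL v EPL, and of the 34 genes 0 in ONL, 3 in GL, 0 in M/T, 1 in GCL-E, 0 in E, 0 for GL v EPL, 1 for M/T v granule. Without the RMS, the number of genes called was 21 in GCL-E, 108 in GCL-I, 97 in E, and of the 34 genes 3 in ONL, 9 in GL, 0 in M/T, 2 for GL v EPL. With boundary spots left out, the number of genes called was 364 in EPL, 0 in M/T, 2 in GCL-E, 220 in GCL-I, 336 in E, 5 in RMS, 162 for granule v EPL, 0 for M/T v granule, and of the 34 genes 0 in ONL, 2 in GL, 0 in M/T, 7 in GCL-I, 10 in E, 2 for granule v EPL, 0 for GL v EPL, 0 for M/T v granule. Only 15 of the 34 were tested in that fit. Its median log2 fold change of all genes was 0.68 in GCL-I and 0.68 in E, in place of 0.09 and 0.10, so these counts came with a shift of all genes. With spots joined by name, the number of genes called was 5 in GCL-E, and of the 34 genes 0 in M/T, 1 in E, 1 for M/T v granule. Leaving out each section in turn, the number of genes called ranged from 53 to 188 in ONL, 56 to 203 in GL, 101 to 241 in EPL, 16 to 49 in M/T, 0 to 2 in IPL, 0 to 12 in GCL-E, 8 to 72 in GCL-I, 9 to 42 in E, 3 to 11 in RMS, 130 to 328 for granule v EPL, 4 to 89 for M/T v EPL, 3 to 49 for GL v EPL, 13 to 32 for M/T v granule, and for the 34 from 0 to 2 in ONL, 0 to 3 in GL, 1 to 5 in EPL, 0 in M/T, 1 to 2 in GCL-I, 0 to 2 in E, 1 to 6 for granule v EPL, 0 to 1 for M/T v EPL, 0 to 3 for GL v EPL, 0 to 2 for M/T v granule. The summed level moved with TMM-scaled totals to 6736 CPM in the ONL, 7242 in the GL and 8975 in the EPL, which put the EPL above the M/T. Without Dlgap1 it moved to 5111, 5329 and 6584 CPM in the ONL, GL and EPL, 6641 in the M/T and 8305 in the E. With boundary spots left out it was 7483 CPM in GCL-E.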
